A study of Ctenopharyngodon idella with 2 samples.

Results

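Described here are 177 genes of the grass carp (Ctenopharyngodon idella) that were strongly higher in the spleen of fish kept at high temperature. The members were chosen by their counts in these same libraries. A gene was taken when it had at least 100 counts at high temperature and a CPM value (counts scaled by the library total) at least 5 times that at normal temperature, with 0.05 CPM added to both sides. Of 27929 listed gene IDs, 12865 reached 100 counts at high temperature, and 177 of these (1.38%) met the ratio. That ratio chose the genes, so their levels and ratios are given as a description, and no test of them was made.

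The study compared the high temperature treatment, a heat stress, with the normal temperature treatment to examine the immune response of this farmed cyprinid fish under heat. Each treatment had 1 spleen RNA sequencing library, so no difference has a replicate check. The sources used here give neither the temperatures, the exposure time, the age or strain of the fish, nor how many fish each library holds. The high temperature library held 20936717 gene counts and the normal temperature library 16658918.

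In fish, as in other animals, heat unfolds proteins, and cells answer by making heat shock proteins, chaperones whose genes are switched on by heat shock factors. Some chaperone genes are nearly silent in unstressed cells, whereas others are already active and are raised further. The spleen of bony fishes filters blood, stores and clears red cells and hosts lymphocytes and macrophages, so a heat response there can involve both cell stress and a different mix of cells. The deposited IDs are positions on assembly sequences without gene names. The assembly and annotation that these IDs belong to were not among the sources used here. None of the IDs matched the 31777 genes of the RefSeq table of this species, which does not show that the genes are missing from it. No member could therefore be assigned here to these or any other functions, and the spleen label could not be checked against marker genes. In whole tissue, more cells of a type and more RNA per cell cannot be told apart.

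Together the members reached a modest place in the transcriptome. They took 210512 counts at high temperature and 21469 at normal temperature. Their joint share was 1.01% of all counts at high temperature (exact 95% binomial interval 1.001 to 1.01%) and 0.129% at normal temperature (0.127 to 0.131%). These intervals cover counting error only, not the spread between fish or the choice of genes by these same counts. The members' summed CPM was 7.80 times higher at high temperature. A few genes carried most of that sum. The 3 members with the most counts held 29.9% of the members' high temperature counts, the first 10 held 53.3% and the first 50 held 84.5%. At the other end, 66 members had fewer than 200 counts at high temperature, and 39 had 1000 or more.

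Levels of different genes were compared per length, as FPKM (counts scaled by gene length and library total). The members' median FPKM was 13.7 at high temperature and 1.77 at normal temperature. The other 12688 genes with at least 100 high temperature counts had medians of 14.2 and 13.8 FPKM in the same order of libraries. At high temperature the members thus lay near the level of the other genes of that count, while at normal temperature they lay below it. The rule favours this pattern, since it selects for low normal temperature values. At high temperature 171 of the 177 members had at least 1 FPKM, 103 had at least 10 and 18 had at least 100. At normal temperature the numbers were 108, 20 and 1. No member was among the 100 highest FPKM values of either library. Among the 500 highest there were 9 members at high temperature and 0 at normal temperature, and among the 2000 highest 30 and 5.

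**Figure D1:**
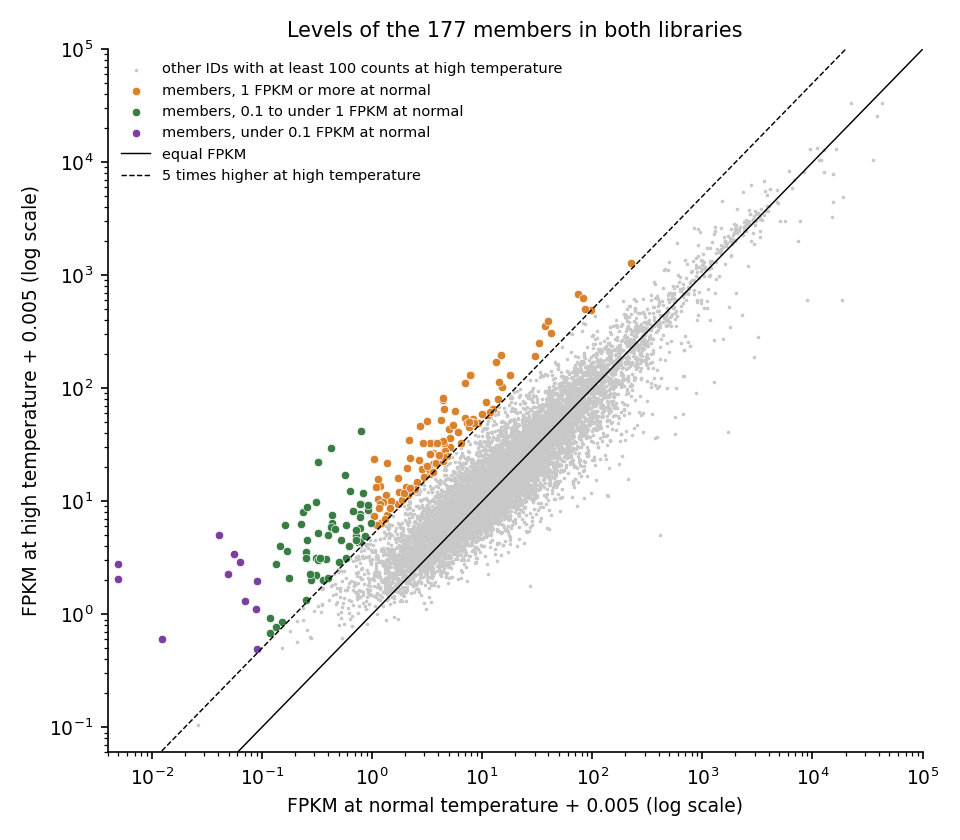
FPKM of each gene with at least 100 counts at high temperature, at high temperature (vertical, log scale) against normal temperature (horizontal, log scale), 0.005 added to both. Each point is 1 gene and coloured points are the 177 members, which lie along and above the dashed line of a ratio of 5 because the rule put them there, from 0.486 to 1289 FPKM at high temperature.

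The ratio of the rule, high over normal temperature, had a median of 7.63 among the members (quartiles 5.81 and 11.8) and a maximum of 97.5. That maximum belongs to a gene with 101 counts at high temperature and 0 at normal temperature and is set by the 0.05 CPM added. The median over all 12865 genes of at least 100 counts was 1.09. A ratio of at least 10 was reached by 59 members, at least 20 by 19 and at least 50 by 6. For each gene an exact 95% interval of the CPM ratio was taken from its counts, which covers counting error only, with every read taken as an independent draw. In all 177 members its lower bound was above 3, the lowest being 3.25, which the rule's count minimum and ratio largely build in. The lower bound was at least 5 in 106 of them (0.824% of the 12865 genes), so for the other 71 counting error alone reaches below the ratio that chose them.

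By choice, the genes nearest to the threshold differed little in ratio, while their high temperature counts ran from 163 to 12295. Just inside it, the gene at 1309 to 2070 on sequence CI01159234 had 199 counts at high temperature and 31 at normal temperature, a ratio of 5.0003. On CI01000146, the gene at 2278636 to 2311063 had 1444 and 228 counts in these libraries, a ratio of 5.02, and on CI01000145 that at 923904 to 924471 had 163 and 25 counts, a ratio of 5.05. Just outside, the gene at 6849632 to 6863920 on CI01000000 had 449 counts at high temperature and 71 at normal temperature, a ratio of 4.99. Next came 12295 and 1963 counts on CI01000333, from 160385 to 176439, with a ratio of 4.98, and 358 and 57 counts on CI01000072, from 2880628 to 2899254, with a ratio of 4.94. The counting intervals of these 6 genes overlap, as their choice makes certain, and the line between members and the next genes is a convention.

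The members were divided by their level at normal temperature. Of the 177, 108 (61%) were already expressed there at 1 FPKM or more, 58 (32.8%) had 0.1 to under 1 FPKM, and 11 (6.21%) were near-silent, under 0.1 FPKM. Of all 12865 genes with at least 100 high temperature counts, 12650, 203 and 12 lay at these levels in the same order. Members made up 0.854%, 28.6% and 91.7% of them, an order the rule favours since it selects for low normal temperature values. The classes are cut per length, not on counts. A gene of 286 bases with 2 normal temperature counts fell at 0.1 to under 1 FPKM. The longest member, with 31 such counts, fell under 0.1 FPKM. At most 3 normal temperature counts were found in 11 members, not all of them the near-silent ones. The already expressed members held 93.2% of the members' high temperature counts, the middle class 6.03% and the near-silent class 0.787%. Median FPKM at high temperature was 27.5 in the already expressed class, 4.90 in the middle class and 2.07 in the near-silent class. The median FPKM at normal temperature was 4.07, 0.408 and 0.0514 in the same order of classes. The most abundant members were genes whose transcripts were already present at normal temperature. A gene's high temperature level is its normal temperature level times its ratio, and the classes are cut on the normal temperature level. The order of the classes at high temperature is therefore partly built in.

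The ratio ran the other way. Its median was 6.67 in the already expressed class, 9.98 in the middle class and 41.8 in the near-silent class. A ratio of at least 10 was found in 20 of 108, 29 of 58 and 10 of 11 genes in these classes. Both the class and the ratio use the normal temperature counts, so this order is partly built in. Of the genes with at least 100 high temperature counts, 12 were under 0.1 FPKM at normal temperature, and 11 of these were members. Unless it is very long, a gene of that level reaches 100 counts only with a large ratio, so this count largely follows from the rule.

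Among the already expressed members, CI01000090_00397826_00398584 had the highest level. It lies on sequence CI01000090 from 397826 to 398584 and is 669 bases long as counted, within a span of 759 bases. It had 18056 counts (1289 FPKM) at high temperature and 2532 counts (227 FPKM) at normal temperature. Its CPM ratio was 5.67 (95% counting interval 5.44 to 5.92), and by FPKM it held place 145 at high temperature and place 504 at normal temperature. This gene was the only member above 100 FPKM at normal temperature.

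Next came the gene at 1647763 to 1658875 on CI01000020, with 679 FPKM at high temperature and 74.1 FPKM at normal temperature and a CPM ratio of 9.17 (8.72 to 9.64). On CI01000340, the gene at 19267148 to 19271146 had 624 FPKM at high temperature and 82.6 at normal temperature. Its 25790 counts at high temperature were the most of any member, against 2717 at normal temperature, a CPM ratio of 7.55 (7.26 to 7.86). The levels of these genes lie close together at high temperature, with the longer gene holding more counts and the lower FPKM.

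The gene at 9031248 to 9034339 on CI01180000 had 502 FPKM at high temperature and 86.6 FPKM at normal temperature, a CPM ratio of 5.79 (5.43 to 6.19). That at 170 to 1069 on CI01025188, 406 bases long and the only listed gene of its sequence, had 493 and 97.1 FPKM in these libraries, a ratio of 5.08 (4.67 to 5.52). On CI01000080 the gene at 4872381 to 4880724 had 395 FPKM at high temperature and 39.6 at normal temperature, a ratio of 9.97 (9.24 to 10.8). These 6 genes had ratios between 5 and 10, with 4192 or more counts each at high temperature and 657 or more at normal temperature.

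In the middle class the levels reached were lower and the ratios wider. The gene at 359594 to 362813 on CI01000174 stood first with 41.8 FPKM at high temperature (1189 counts) and 0.794 FPKM at normal temperature (18 counts). Its CPM ratio was 52.6 (33.1 to 89). A gene of 286 bases on CI01161008, from 773 to 1673, had 29.7 FPKM (178 counts) at high temperature and 0.42 FPKM (2 counts) at normal temperature, a CPM ratio of 70.8 (19.3 to 589). Few normal temperature counts make the upper bounds of such genes wide.

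The gene at 670994 to 674390 on CI01000146 had 22.1 FPKM at high temperature and 0.32 FPKM at normal temperature, from 347 and 4 counts. On CI01000340, the gene at 4399692 to 4401164, 318 bases long, had 17.0 FPKM at high temperature and 0.566 at normal temperature, from 113 and 3 counts. The gene at 5362044 to 5364177 on CI01000053 had 12.3 FPKM at high temperature and 0.625 at normal temperature, a CPM ratio of 19.7 (9.34 to 49.6). Of the 58 genes in this class, 6 reached 10 FPKM at high temperature.

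None of the 11 near-silent genes reached 10 FPKM at high temperature, and 9 reached 1 FPKM. Their counts were 100 to 253 at high temperature (median 127) and 0 to 31 at normal temperature (median 2). The highest level was that of CI01000189_01794806_01800713, on CI01000189 from 1794806 to 1800713, 1690 bases long in a span of 5908 bases. It had 179 counts (5.06 FPKM) at high temperature and 1 count (0.0355 FPKM) at normal temperature, and its CPM ratio of 142 has a counting interval of 25.2 to 5657.

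A further 2 genes had no normal temperature count at all. The gene at 9661601 to 9665293 on CI01000049 had 101 counts (2.80 FPKM) at high temperature and 0 at normal temperature. That at 79705 to 119324 on CI01000197 had 100 counts (2.07 FPKM) and 0 in these libraries. A gene with 0 counts may have had up to 3, or 0.18 CPM, at normal temperature, so against that limit these genes were at least 26.8-fold and at least 26.5-fold higher at high temperature. The lower bounds of their 95% counting intervals, which also count the error of the high temperature value, were 21.4 and 21.2.

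The remaining genes named in this class had a few normal temperature counts. The gene at 2640566 to 2655871 on CI01000028 had 168 counts (3.44 FPKM) at high temperature and 2 counts (0.0514 FPKM) at normal temperature. On CI01000197, that at 125913 to 150004 had 253 counts (2.93 FPKM) and 4 counts (0.0582 FPKM) in these libraries, and lies next to the gene of that sequence with no normal temperature count. The gene at 6242992 to 6270894 on CI01000047 had 127 counts (2.26 FPKM) at high temperature and 2 counts (0.0448 FPKM) at normal temperature. In FPKM terms these genes lay well below the median of 13.7 among all members at high temperature.

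**Figure D2:**
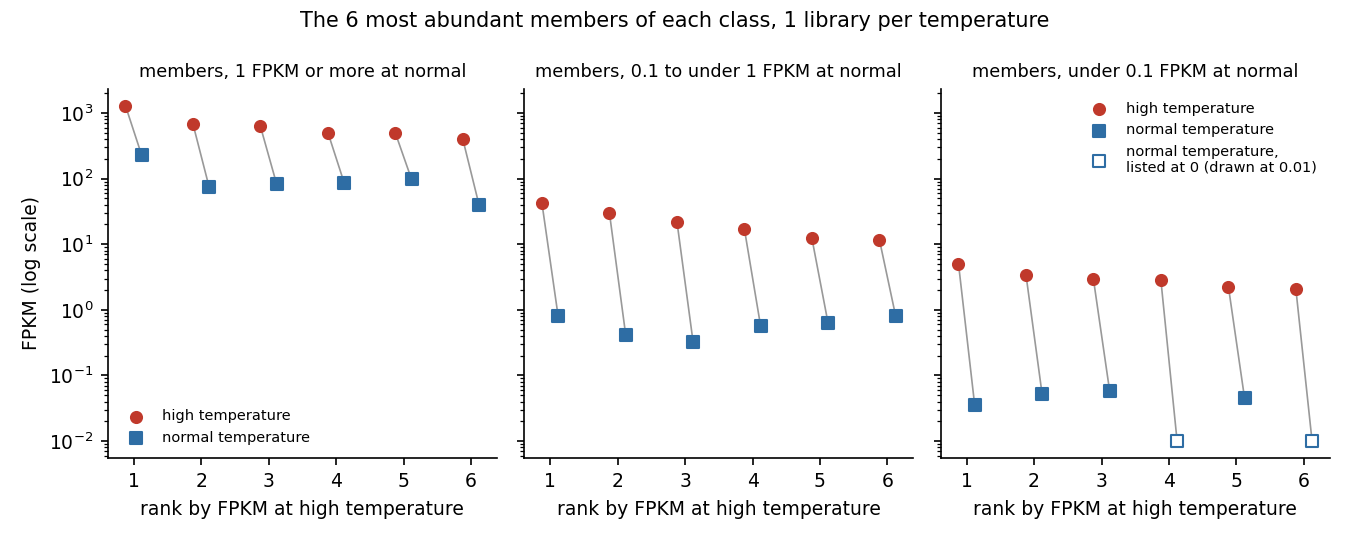
FPKM (log scale) of the 6 members with the highest level at high temperature in each class, with the high temperature library as circles and the normal temperature library as squares joined by a line, 1 value per library. High temperature levels run from 395 to 1289 FPKM in the already expressed class (left), 11.8 to 41.8 in the middle class and 2.07 to 5.06 in the near-silent class (right), where 2 genes are listed at 0 at normal temperature.

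Gene lengths, recovered from count and FPKM, were much like those of other genes. The members' median length was 1233 bases (quartiles 768 and 1944), against 1342.5 (792 and 2229) in the other genes with at least 100 high temperature counts. A single whole-number length was fixed for 174 members, and 136 of these (78.2%) were divisible by 3, against 76.7% of the other genes. Members under 500 bases were 15 (8.47%, against 10.5% of other genes) and those over 5000 bases were 11 (6.21%, against 3.85%). By quintiles of length, the share of genes that were members was 1.24, 1.75, 1.60, 1.051 and 1.24% from shortest to longest, beside 1.38% in all.

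Length differed between the classes. Its median was 977.5 bases in the already expressed class, 1685 in the middle class and 3672 in the near-silent class. The minimum of 100 counts admits a gene of low FPKM only if it is long, and the 203 genes of the middle level with at least 100 high temperature counts, members or not, had a median of 3668 bases. The median member of the middle class was shorter than that. A short gene under 1 FPKM at normal temperature reaches 100 counts only with a large ratio, so the rule builds this in. At 1 FPKM or more, the median was 977.5 bases in the members and 1326 over all 12650 genes with that count. No test of this difference was made.

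The extremes show how far a count threshold and a level per length can part. The longest member, at 2087565 to 2183755 on CI01000325, is about 21818 bases long. It had 222 counts at high temperature and 31 at normal temperature, but only 0.486 and 0.0853 FPKM. The shortest, at 5616519 to 5617045 on CI01000063, has 252 bases and had 185 and 9 counts, which is 35.1 FPKM at high temperature and 2.14 at normal temperature. With similar counts at high temperature, the longest has the lowest FPKM of all members and the shortest lies close to their upper quartile of 36.1 FPKM.

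Spans, the distance from the start to the end field of an ID, were shorter among the members. Their median was 4992.5 bases (quartiles 1999 and 12882; 176 genes with a position), against 7495.5 (3449 and 15266) in the 12680 other genes. Counted bases made up a median of 25.2% of a member's span and 18.6% of another gene's span. The share of genes that were members was 2.18, 1.52, 1.01, 0.934 and 1.21% from the narrowest to the widest quintile of spans, beside 1.38% in all. The narrowest quintile, up to 2820 bases, held 56 of the members. By class, the members' median span was 3206 bases in the already expressed class, 9166.5 in the middle class and 24092 in the near-silent class. Only the first of these lay below the 7495.5 bases of the other genes, which were not split by class. Span was not part of the rule, and no test of these differences was made.

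In 12 members (6.82%) the gene was the only one listed on its sequence, against 2.603% of the other genes, and the median span of these 12 was 900.5 bases. Their part in the shorter spans was examined by leaving them out. The median span was then 5162 bases in the members and 7708.5 in the other genes, so the difference was of about the same size without them.

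Length equalled span in 17 of 173 members with a single length and a position (9.83%), against 535 of 12673 other genes (4.22%). Such genes have no intron by these fields, but the fields do not always match. Among the other genes the span fell to as little as 0.276 times the length, though among the members it was never below the length. Without the genes alone on their sequence, the shares with length equal to span were 9.32% and 3.82%. The 17 genes were 349 to 7053 bases long (median 948) and had a median of 20.7 FPKM at high temperature and 3.12 at normal temperature, with a median ratio of 7.17. The most abundant of them had 306 FPKM at high temperature and 42.6 FPKM at normal temperature, in 756 bases on CI01000070 from 3378765 to 3379520. The narrowest span of any member, 349 bases on CI01000005 from 4823360 to 4823708, also equals its length, with 21.2 FPKM at high temperature and 3.61 at normal temperature. The study's labels do not say whether such genes were counted with strand, so reads of an antisense partner cannot be told apart.

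At the other end, 5 members (2.84%) spanned 50 kb or more, against 3.42% of the other genes. Their levels were mostly low, with a median of 0.773 FPKM at high temperature and 0.129 at normal temperature. The widest, at 2211617 to 2343950 on CI01000106, covers 132334 bases and had 233 counts at high temperature and 31 at normal temperature, a CPM ratio of 5.98 (4.10 to 9.004). An exception in level is the gene at 5295266 to 5357773 on CI01000304, with 45.5 FPKM at high temperature and 7.57 at normal temperature.

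**Figure D3:**
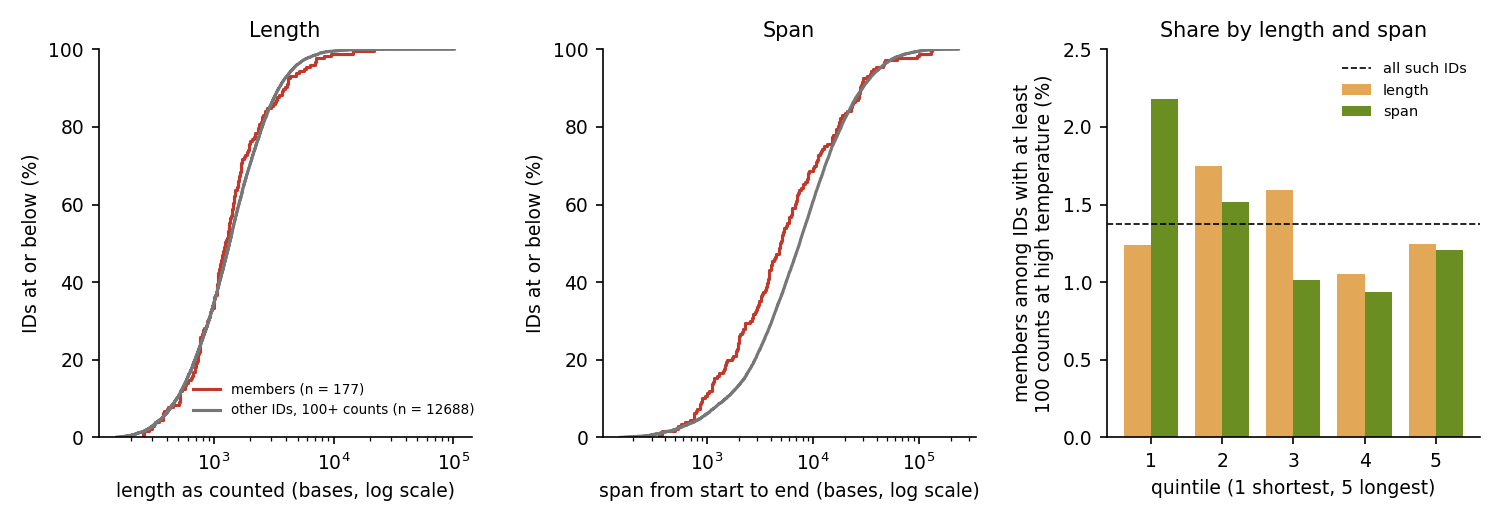
Left and centre, the percentage of genes at or below each length and each span in bases (log scale), for the members and for the other genes with at least 100 counts at high temperature. Right, the percentage of such genes that were members by quintiles of length and span, with the dashed line at 1.38%. The length curves nearly coincide (medians 1233 and 1342.5 bases), while the members' span curve lies to the left (medians 4992.5 and 7495.5 bases).

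The 176 members with a position were spread over 106 sequences of the 2833 that carry a listed gene. Of the 2833, 2350 carry only 1 listed gene, and 342 of those lone genes had at least 100 high temperature counts. Most of the 2833 could thus hold no member. A single member was found on 67 of the 106 sequences, 2 on 22 and 3 or more on 17. The most members on a sequence were 8, on CI01000340, where 341 genes had at least 100 high temperature counts, a share of 2.35%. On CI01000006 there were 6 members among 241 such genes (2.49%). Among the 8 sequences with 4 or more members, the share ran from 1.40% on CI01000000 to 9.30% on CI01000146, beside 1.38% in all. These sequences were picked for holding the most members, which favours shares above 1.38%, so the shares do not show clustering by sequence. The 9.30% rests on 4 members among 43 such genes, and 2 of these members are neighbours.

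Some members lay side by side. Of the 176, 27 (15.3%) had another member as the next listed gene on either side, against 1.07% of the other genes with at least 100 high temperature counts. No test of this difference was made. The neighbouring members formed 13 clusters, 12 of 2 genes and 1 of 3. The clusters were 9.39 to 109 kb wide (median 29.8), and their summed CPM ratios ran from 5.79 to 70.2. Gaps between the members of a pair ran from 1237 to 61634 bases with a median of 6158, near the median of 7162 bases over all 25019 pairs of neighbouring listed genes. No member overlapped a listed neighbour, and only 0.0946% of the other genes with at least 100 high temperature counts did. The lengths within the 14 neighbouring pairs differed by 1.06-fold to 11.6-fold (median 1.67-fold), and 4 pairs were within 1.2-fold. Lengths were not compared over all pairs of neighbouring listed genes, so these values have no background beside them. Whether neighbours are copies of each other, and how reads shared between copies were counted, is not stated in those sources, so single values in a cluster are uncertain.

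The largest cluster lies on CI01000006 from 5779467 to 5888691, with 3 genes that each had under 1 FPKM at normal temperature. The first had 271 counts (9.40 FPKM) at high temperature and 18 (0.785 FPKM) at normal temperature. The second had 152 counts (6.47 FPKM) and 8 (0.428 FPKM) in these libraries. The last, at 5870762 to 5888691, had 563 counts (7.996 FPKM) at high temperature and 13 (0.232 FPKM) at normal temperature, a CPM ratio of 34.5 (19.99 to 65.1). At high temperature the 3 genes thus lay close together in level, from 6.47 to 9.40 FPKM. Another member, at 5719079 to 5723838, had 7.66 FPKM at high temperature and 0.779 at normal temperature, and 3 genes with at most 3 counts in either library separate it from the cluster. The next genes on the far side did not share the pattern, with 25.5 FPKM at high temperature and 18.3 at normal temperature in the first and 14.6 in both libraries in the second.

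On CI01000020, a pair from 1647763 to 1665929 joins very unlike levels. Its first gene is the one with 679 FPKM at high temperature described above. The second, at 1660231 to 1665929 and of similar length (1422 bases against 1344), had 8.83 FPKM (263 counts) at high temperature and 0.253 FPKM (6 counts) at normal temperature. The CPM ratios were 9.17 (8.72 to 9.64) and 34.9 (15.8 to 95.9), whose intervals do not overlap. A second pair, from 1585338 to 1638242, lies before it with 1 gene of 3 and 0 counts in between. Its genes had 3.11 and 5.97 FPKM at high temperature, against 0.38 and 0.421 at normal temperature.

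The pair on CI01000319, from 4751528 to 4760920, had 82.4 and 130 FPKM at high temperature, against 4.38 and 17.9 FPKM at normal temperature. The CPM ratios were 18.8 (15.2 to 23.6) and 7.26 (6.45 to 8.18). Another member at 4724377 to 4727991 had 4.02 FPKM at high temperature and 0.142 at normal temperature. The gene between that member and the pair had 41 and 6 counts, too few for the rule, and its ratio of 4.90 also lay under 5. The next gene after the pair, the most abundant of the region, had 780 FPKM at high temperature and 663 at normal temperature, a CPM ratio of 1.18 (1.14 to 1.22).

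On CI01000018, the pair from 6015189 to 6025859 had 47.0 and 353 FPKM at high temperature, against 7.75 and 37.5 FPKM at normal temperature. Their CPM ratios were 6.07 (5.05 to 7.35) and 9.41 (8.40 to 10.6). The listed genes beside the pair had 2.22 and 0.354 FPKM at high temperature and 1.59 and 0.0809 at normal temperature. In each of these 4 regions, the listed gene on 1 side of the cluster had a ratio of the rule between 0.815 and 1.40. On the other side the ratio was 3.87 on CI01000020 (3 counts at high temperature and 0 at normal temperature), 4.90 on CI01000319 (41 and 6) and 3.79 on CI01000018 (22 and 4), all on few counts, and 0.454 on CI01000006 (0 and 1).

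**Figure D4:**
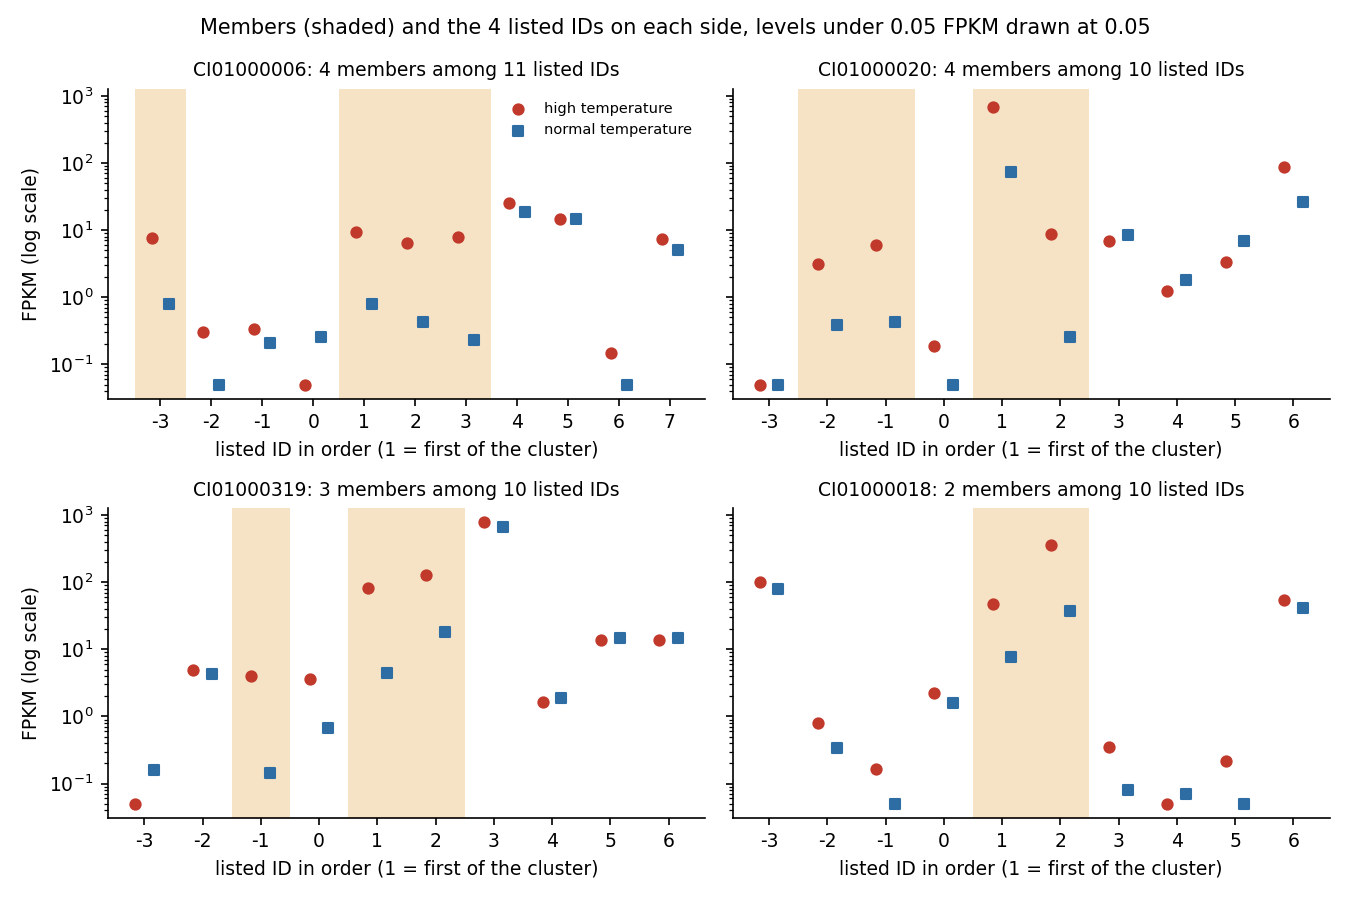
FPKM (log scale) of each listed gene in order along 4 sequences, from 4 genes before to 4 genes after a cluster of neighbouring members, with the high temperature library as circles and the normal temperature library as squares. Shaded genes are members, where the 2 symbols stand far apart, for example 353 and 37.5 FPKM in the second gene on CI01000018, and unshaded neighbours vary, from the gene with 780 and 663 FPKM on CI01000319, whose symbols nearly meet, to that with 3.67 and 0.674 FPKM on the same sequence.

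Genes beside members were looked at as a group. Of the other genes with at least 100 high temperature counts, 136 lay next to a member, and 25 of these (18.4%) had a ratio of at least 2. In the 12544 that did not lie next to a member the share was 9.08%. The median ratios were 1.16 and 1.08. The largest ratio among the 136 was 4.73, below 5 as the rule requires.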

How the data were processed

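Trizol served for RNA extraction from spleen and standard Illumina kits for the libraries, per the labels' protocols. The submitters' processing notes name CASAVA 1.7 and the aligner HISAT. How reads were counted, with or without strand, on which annotation and genome build, is not stated in the labels. The authors deposited whole-number read counts per gene, not normalized, and a table of FPKM. The authors' FPKM equalled the count divided by a gene length and by the library total for all 14745 IDs of at least 100 counts, within the rounding of 0.0001. It is therefore no second measurement. Lengths were recovered from this relation.

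Members and lists were chosen with earlier results of these data known. CPM were taken from column totals. Exact Clopper-Pearson 95% intervals of a gene's share of counts were turned into CPM ratios. They cover counting error only, and PCR reads lacking molecular identifiers are not separate molecules. With 1 library per treatment no test between treatments was made and p-values are not given. The scripts were tested on simulated data.

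The named genes are, by rule, those of highest high temperature FPKM in each class, the 4 clusters of most members (ties by high temperature counts), the longest and shortest gene, the widest span and the genes nearest to the threshold. At most 2 IDs are printed, and other genes are given by position as the IDs state it. The narrowest span, the gene of CI01000070, that of CI01000304, the genes flanking clusters and the other members near them were chosen after their values were seen. Alternatives were edgeR 4.0.16 TMM and DESeq2 1.42.0 size factors (R 4.3.3), other count minimums, ratios and a larger pseudocount. Python 3.11.15, numpy 2.4.6, scipy 1.17.1 and pandas 2.3.3 were used.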

Additional observations from a re-analysis of the deposited data

How the results depend on the processing

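Of 62 values recomputed under alternatives, 38 stayed within 1.5 times the reported count or within its interval. This tally is not a rate of robustness. Each alternative set of members lay within the 177 or held all of them, and the joint share was judged by its narrow counting interval. TMM factors and DESeq2 size factors, which place the ratios 0.16 and 0.17 lower on the log2 scale, each left 145 of the 177 members, with a joint share at high temperature of 0.929%. A pseudocount of 0.5 CPM left 138, with a share of 0.952%. The members left by these settings were all among the 177. A minimum of 20 high temperature counts gave 460 members, 139 near-silent, 64 beside another member and a share of 1.06%. Fewer counts admit near-silent genes by construction. A minimum of 500 left 59 members, 0 near-silent, 57 already expressed, 8 beside another member and 0.878%. A ratio of 4 gave 289 members, 189 already expressed, 44 neighbouring and 1.67%. A ratio of 10 left 59, 20, 9 and 0.197% in the same order. A counting interval wholly at or above 5 left 106 members, 59 already expressed, with a share of 0.869%. Calling genes of at least 100 normal temperature counts already expressed gave 42. Median length ranged from 1226 to 1356 bases and median span from 4485 to 5912.5 bases over all of these. Leaving out members alone on their sequence was added after seeing the data.

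No paired analysis was possible because there is a single library per treatment, and for the same reason none was left out. Depth limits ratios that rest on few normal temperature counts. The members' normal temperature counts were 0 to 31 in the near-silent class and 2 to 49 in the middle class. In the already expressed class they ran from 9 to 2717 (median 66), so its sparser members have this limit too.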

Other observations

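The 12 members that are the only listed gene of their sequence had a median ratio of 9.09. Their levels ran from 7.51 to 493 FPKM at high temperature (median 25.3) and from 0.42 to 97.1 FPKM at normal temperature (median 3.25).

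The member without a position, of 572 bases, had 105 counts (8.77 FPKM) at high temperature and 11 counts (1.15 FPKM) at normal temperature, a CPM ratio of 7.60 (95% counting interval 4.08 to 15.7).

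The minimum of 100 counts hides sparser genes with as large a ratio. Of 15064 genes below it, 805 had a ratio of at least 5 by the same formula, many on a few counts. Among the 151 sparse genes directly beside a member, 29 had such a ratio.

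Besides the clusters described above, 2 pairs joined members of few counts. The genes of the first pair were given singly above. The pair on CI01000197 from 79705 to 150004 had 353 counts at high temperature and 4 at normal temperature, a summed CPM ratio of 70.2 (27.2 to 259). The pair on CI01000098 from 3010723 to 3023524 had 353 and 8 counts in these libraries, a ratio of 35.1 (17.6 to 82.0). Sums blend genes of unlike ratio.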
